A study of Rattus norvegicus with 14 samples.

Results

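Methylated DNA was captured from the dorsal hippocampus of 14 rats and sequenced (Methyl-Seq), and the deposited table lists the tags (aligned reads) of each animal in 310070 genomic regions of the rat genome RN4. The regions described here lie where that table is most crowded. On chromosomes 1 to 20, each region was assigned by its start to a fixed window of 100 kb, and the windows that held at least 30 regions were kept, without the last 2 Mb of each chromosome. This rule chose 41127 of the 310070 regions, in 1216 of the 25011 windows that held any region. They are called dense windows below. The rule used the positions of the regions and no tag counts. The positions themselves came from differences in tags between pairs of these animals, as described below.

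All animals were male Wistar rats that had received methyl scopolamine, which limits the peripheral effects of cholinergic drugs. Control animals (CTRL, n = 5) were then injected with saline and fed a standard diet. PILO animals (n = 4) received pilocarpine at 340 mg/kg to induce status epilepticus and the standard diet, and PILO+KD animals (n = 5) received pilocarpine and a ketogenic diet. Animals without an early status epilepticus were given a further, smaller dose. Pilocarpine-treated animals then received diazepam and glucose, and some carried EEG electrodes. Controls received none of these, so their effects cannot be told apart from those of pilocarpine. Tissue was taken after an observation period of 84 days, each animal gave 1 library, and no ketogenic diet group without pilocarpine was analysed here, so the diet was compared only among pilocarpine-treated animals.

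In mammalian DNA, methyl groups sit mainly on cytosines followed by guanine (CpG). Proteins with a methyl-CpG-binding domain hold such DNA, so more tags over a region mean more captured methylated fragments, and the capture depends on the number of CpGs as well as on the share of them that is methylated. In brain, CpG methylation differs between neurons and glia, and loss of hippocampal neurons and gliosis are known features of the pilocarpine model. Methylation per cell and the mixture of cells cannot be told apart in this bulk tissue.

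The table itself was built from differences. Its regions are stretches at which peak calling between pairs of animals found a difference, merged over all pairs, and the pairs included animals of different groups. A dense window is therefore a place with many such stretches, and not one with a given number of genes or CpGs. Dense windows held a median of 33 regions and at most 51, and the other windows a median of 8. At the threshold, 218 windows held exactly 30 regions and 241 held 29, with medians of 18914 bp and 18239 bp covered by regions and of 596 and 584 tags per animal.

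The regions of dense windows were much like the others in size and stood closer together. Their median length was 593 bp (156 to 19206 bp), against 559 bp for the other regions of chromosomes 1 to 20. The median distance to the next region was 1485 bp in dense windows and 4032 bp elsewhere. Regions covered a median of 21.7% of a dense window (14.4% to 45.1%) and 5.58% of the other windows. The most heavily tagged region of a dense window held a median of 16.4% of that window's tags (7.02% to 87.0%), against 41.4% in the other windows. The regions of dense windows made up 13.3% of all regions, 13.4% of all covered bases and 10.6% of all tags.

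Dense windows were spread unevenly over the chromosomes. On chromosome 12, 124 of 461 windows were dense (26.9%), and on chromosome 20, 108 of 544 (19.9%). Chromosome 19 followed with 9.67%, and chromosome 2 had the lowest share, 1.28%. Of the 1216 dense windows, 638 bordered another dense window. The longest unbroken run spanned 11 windows with 412 regions, at chr12:4800001-5900000. No annotation of RN4 was used here, so the genes in these windows are not named.

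The share of an animal's tags that fell in dense windows varied between animals within each group by more than it did between groups. The shares of the CTRL animals were 11.1%, 11.4%, 10.9%, 10.1% and 10.2% for replicates 1 to 5. Those of the PILO animals were 10.2%, 11.6%, 10.0% and 10.3% for replicates 2 to 5. Those of the PILO+KD animals were 10.3%, 11.6%, 11.5% and 8.97% for replicates 1 to 4 and 9.96% for the animal labelled 211. PILO replicate 3 stood above the other PILO animals, PILO+KD replicates 2 and 3 above the other PILO+KD animals, and PILO+KD replicate 4 below all animals. The group means were 10.7% ± 0.537 (SD, n = 5) in CTRL, 10.5% ± 0.703 (SD, n = 4) in PILO and 10.5% ± 1.09 (SD, n = 5) in PILO+KD, and the groups overlapped.

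**Figure D1:**
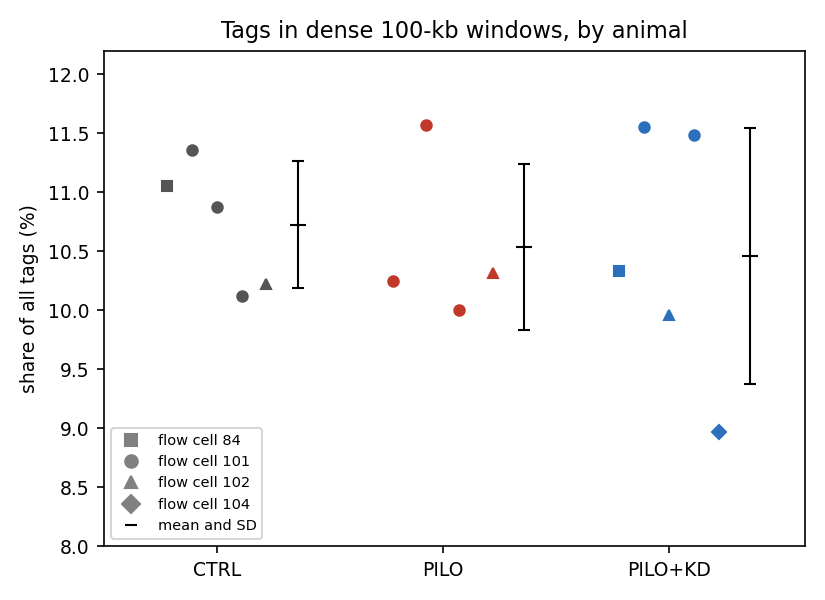
Share of each animal's tags that fell in dense 100-kb windows (y axis, percent, which does not start at 0) by group, with 1 point per animal, a symbol for each flow cell and the mean and SD beside each group. The 3 groups overlap, and PILO+KD replicate 4, the animal of flow cell FC104, lies lowest at 8.97%.

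The libraries had been sequenced on 4 flow cells, named FC084, FC101, FC102 and FC104 in the labels. On flow cell FC101, which held 8 animals, the mean share was 10.8% in 3 CTRL animals, 10.6% in 3 PILO animals and 11.5% in 2 PILO+KD animals, so that PILO+KD was the highest group there and not the lowest. The total number of tags per animal was 8411986 to 10559592 in CTRL, 6972700 to 12391666 in PILO, where replicate 3 was the deepest library of all, and 8286533 to 10106466 in PILO+KD. Because the share of tags in dense windows differed between animals, counts of regions called higher or lower are given below also without single animals and within flow cell FC101.

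Of the 41127 regions, 22027 (53.6%) passed the filter on low tag counts and were tested, against 48.5% of the other regions of chromosomes 1 to 20. A region was called when its unadjusted p in edgeR's quasi-likelihood test was below 0.01, and p-values were also adjusted by the Benjamini-Hochberg method over all 155092 tested regions. The comparisons of PILO and of PILO+KD with CTRL share the same 5 control animals, so their values are set side by side and their agreement is not counted.

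The first comparison asked which regions differed between chronically epileptic animals and controls. Between PILO and CTRL, 343 of the 22027 tested regions of dense windows were called (1.56%), against 1.19% of all tested regions. More of them were higher than lower in PILO: 227 were higher (1.03% of those tested, against 0.713% of all tested regions), and 116 were lower (0.527%, against 0.482%). At an unadjusted p below 0.05 there were 1468 (6.66%, against 5.13%). After adjustment, edgeR's quasi-likelihood test left none below 0.05, against 6 of all tested regions (0.00387%). DESeq2 also left 0 whereas edgeR's exact test left 11, and the share of all tested regions was not counted for either. At unadjusted p below 0.01 the exact test called 485 regions of dense windows (2.2%, against 1.68% of all tested regions). The median log2 fold change over the tested regions of dense windows was -0.0056, and over all tested regions 0.0038. Called regions had a median absolute log2 fold change of 0.93.

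The excess of higher regions rested on 1 animal. Without PILO replicate 3, 385 regions were called (1.75%, against 1.43% of all tested regions), of which 145 were higher and 240 lower, and the median log2 fold change over the tested regions of dense windows was -0.066. PILO replicate 3 was also the PILO animal with the largest share of tags in dense windows and the most tags, and the part of either in the result was not tested. Within flow cell FC101, which includes this animal, 382 regions were called (1.73%, against 1.41%), 244 higher and 138 lower.

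With the ketogenic diet, the called regions were divided about evenly. Between PILO+KD and CTRL, 253 regions of dense windows were called (1.15%, against 0.92% of all tested regions), 120 of them higher (0.545%, against 0.5%) and 133 lower (0.604%, against 0.42%). At p below 0.05 there were 1140 (5.18%, against 4.22%). After adjustment edgeR's quasi-likelihood test left 0, against 2 of all tested regions (0.00129%), DESeq2 0 and edgeR's exact test 11. The share of all tested regions after adjustment was not counted for the last 2. At unadjusted p below 0.01 the exact test called 314 (1.43%, against 1.17%). The split between higher and lower moved with single animals and with the scaling. When PILO+KD replicate 3 was left out it was 69 higher and 188 lower (1.17% called, against 0.99% of all tested regions). With PILO+KD replicate 4 left out it was 185 and 111 (1.34%, against 1.01%). Within flow cell FC101 it was 139 and 45 (0.835%, against 0.612%), and with libraries scaled by total tags 81 and 140 (1%, against 0.803%). The split among all tested regions was not counted in these settings. The count fell to 168 (0.763%, against 0.736%) without CTRL replicate 4 and to 166 (0.754%, against 0.634%) without CTRL replicate 5. No direction is therefore given for these regions as a whole.

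Few regions separated the pilocarpine-treated animals by diet. Between PILO+KD and PILO, 93 regions of dense windows were called (0.422%, against 0.351% of all tested regions). Of these, 25 were higher in PILO+KD (0.113%, against 0.151%) and 68 were lower (0.309%, against 0.201%). At p below 0.05 there were 630 (2.86%, against 2.3%). After adjustment edgeR's quasi-likelihood test left 0 (0% of all tested regions too), DESeq2 0 and edgeR's exact test 1. At unadjusted p below 0.01 the exact test called 99 (0.449%, against 0.382%). The split turned to 72 higher and 46 lower without PILO replicate 3 (0.536% called, against 0.431% of all tested regions). Within flow cell FC101 it turned to 95 higher and 43 lower (0.627%, against 0.556%). The count rose to 161 without PILO replicate 2 (0.731%, against 0.594%).

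The share of called regions was higher in crowded windows than in sparse ones, but dense windows did not stand apart from those just below the threshold. Between PILO and CTRL, 0.449% of tested regions were called in windows with 1 to 4 regions and 0.634% in windows with 5 to 9. The share was 1.33% in windows with 10 to 19 regions and 1.55% in windows with 20 to 29. It was 1.56% at 30 to 39 regions and 1.61% at 40 or more. These classes were formed by the number of regions alone and kept the last 2 Mb of each chromosome. Regions of sparse windows carried more tags, with a median sum over the animals of 714 in windows with 1 to 4 regions and 344 in windows with 30 to 39, and the part of this in the trend was not tested. The regions were also chosen for differing between animals. Between PILO+KD and CTRL the share rose from 0.449% in the sparsest windows to 1.30% in the densest, and between PILO+KD and PILO from 0.094% to 0.51%.

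**Figure D2:**
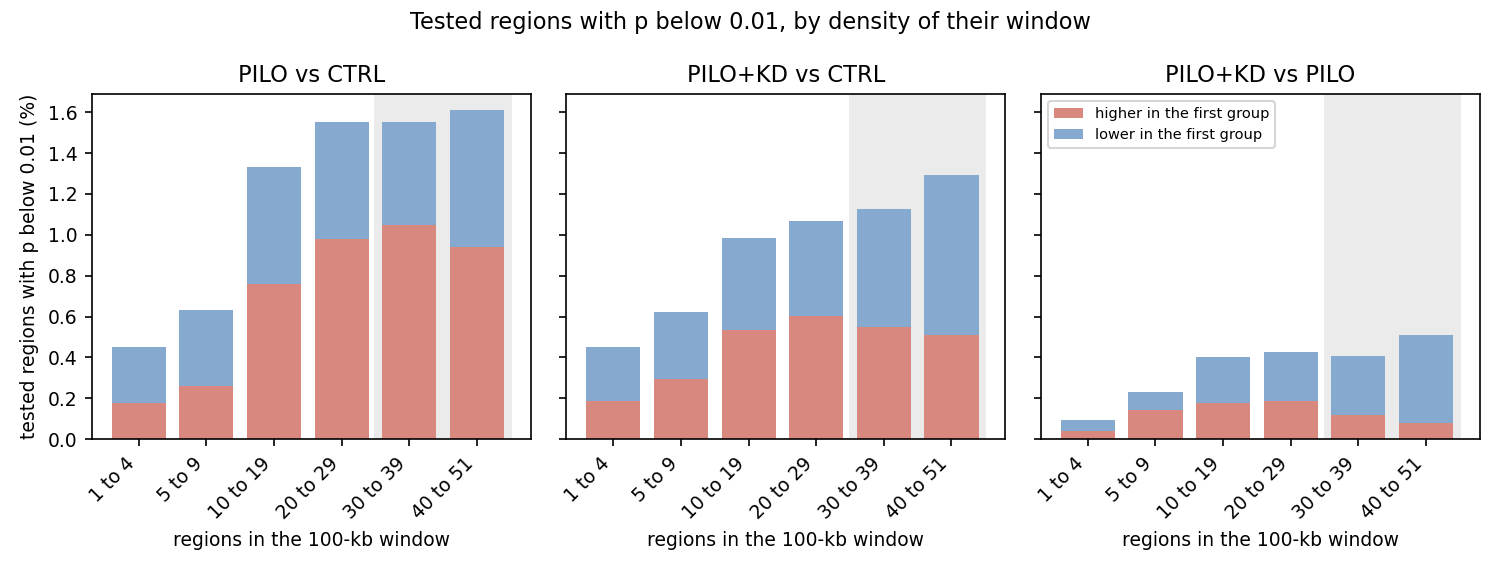
Share of tested regions with p below 0.01 (y axis, percent) by the number of regions in their 100-kb window (x axis), for the 3 comparisons, with regions higher and lower in the first-named group stacked and dense windows shaded. The total for PILO versus CTRL climbs from 0.449% to 1.33% over the 3 sparsest classes and then stays between 1.55% and 1.61%.

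Regions of dense windows also varied slightly more between animals of the same group than other regions did. The median SD of the log2 tag level within CTRL was 0.334 in dense windows and 0.307 elsewhere, within PILO 0.363 and 0.325, and within PILO+KD 0.372 and 0.358. Among regions with similar tag sums over the animals (203 to 665) the values were 0.334 and 0.328 in CTRL, 0.372 and 0.354 in PILO, and 0.372 and 0.376 in PILO+KD, so the gap was smaller at matched depth in CTRL and PILO and turned in PILO+KD.

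Levels of single regions are given as CPM, which is the tags of an animal scaled to its library size, with 1 tag equal to 0.0822 to 0.154 CPM. The region with the smallest p among those higher in PILO lay at chr20:18600337-18601041, in a window of 30 regions. Its CPM was 1.39, 0.895, 1.29, 1.27 and 0.872 in CTRL, 2.66, 3.54, 2.93 and 3.78 in PILO, and 2.73, 2.00, 1.69 and 1.44 in PILO+KD replicates 1 to 4 and 2.33 in animal 211. All PILO animals lay above all CTRL animals, and the PILO+KD animals lay above the controls with 1 of them inside the PILO range. The log2 fold change of PILO over CTRL was 1.5 ± 0.291 (SE; adjusted p = 0.148 in edgeR's test). The region was chosen from these same animals for its small p, and all PILO animals lay above all CTRL animals in 336 tested regions of dense windows (1.53%, against 0.949% of the other tested regions) and below them in 246 (1.1%, against 0.962%).

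The second such region, chr7:31692010-31692828, was at the limit of the depth in controls, with 2 to 11 tags per animal. Its CPM was 0.298, 1.23, 1.03, 0.253 and 0.872 in CTRL, 4.74, 3.45, 1.54 and 2.14 in PILO, and 4.17, 1.26, 1.69 and 2.21 in PILO+KD replicates 1 to 4 and 2.23 in animal 211. Every pilocarpine-treated animal lay above the controls on either diet. The log2 fold change of PILO over CTRL was 2.01 ± 0.416 (SE; adjusted p = 0.266 in edgeR's test). The other 3 regions chosen as higher in PILO, at chr9:102010196-102010821, chr12:7352914-7354219 and chr1:155388451-155389443, had log2 fold changes of 1.83, 0.94 and 0.76, and in each all PILO animals lay above all CTRL animals.

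Among regions lower in PILO, the smallest p belonged to chr12:7708518-7709354, in a window of 33 regions. Its CPM was 5.76, 4.36, 7.73, 3.29 and 6.11 in CTRL, 0.444, 1.48, 0.154 and 1.14 in PILO, and 0.288, 2.53, 0.452 and 1.22 in PILO+KD replicates 1 to 4 and 3.39 in animal 211. The PILO animals lay below all controls, whereas animal 211 reached the lowest control. PILO fell by 2.59 ± 0.453 on the log2 scale (SE; adjusted p = 0.0614 in edgeR's test) and PILO+KD fell by 1.73 ± 0.377 (SE; adjusted p = 0.614). Without PILO replicate 3 the fall in PILO was -3.13, and within flow cell FC101 it was -2.61.

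Of the other 4 regions chosen as lower in PILO, 3 were also on chromosome 12. At chr12:7441781-7442986 the CPM was 11.3, 7.38, 14.3, 11.3 and 11.1 in CTRL and 2.07, 2.06, 3.39 and 7.44 in PILO, so that PILO replicate 5 reached the lowest control (log2 fold change -1.58 ± 0.307, SE; adjusted p = 0.148 in edgeR's test). At chr12:7419360-7420167 and chr12:19680828-19681557 the log2 fold changes were -1.51 and -1.18, and all PILO animals lay below all controls. The remaining one, chr20:3512210-3512877, is described with the diet below.

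The largest difference of PILO+KD from CTRL among the chosen regions was at chr5:168727249-168732825, a region of 5577 bp in a window of 41 regions. Its CPM was 43.8, 40.1, 1.42, 36.8 and 41.8 in CTRL, 2.07, 35.8, 2.31 and 2.27 in PILO, and 2.16, 2.32, 2.82 and 2.54 in PILO+KD replicates 1 to 4 and 2.44 in animal 211. The animals thus fell on 2 levels: 4 controls and PILO replicate 3 were high, and CTRL replicate 3, the other PILO animals and all PILO+KD animals were low, with no value in between. The groups overlapped through these single animals. PILO+KD fell by 3.73 ± 0.618 on the log2 scale (SE; adjusted p = 0.0581 in edgeR's test), and without CTRL replicate 3 the value was -4.04.

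The other 4 regions chosen as lower in PILO+KD than in CTRL included chr12:7708518-7709354 above. At chr12:5690974-5691648, in a window of 47 regions within the longest run, the CPM was 1.29, 1.01, 2.45, 1.65 and 3.27 in CTRL, and 0.575, 0.527, 0.339 and 0.663 in PILO+KD replicates 1 to 4 with no tag in animal 211. The PILO+KD animals lay below all controls, at 0 to 6 tags per animal, and fell by 2.18 ± 0.497 on the log2 scale (SE; adjusted p = 0.614 in edgeR's test). At chr12:5188474-5189612 and chr2:29140459-29142349 the log2 fold changes were -1.48 and -0.78. Within flow cell FC101 the last was -0.40 with an unadjusted p of 0.0738 in edgeR's test.

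In the other direction, the smallest p for PILO+KD over CTRL was at chr6:28595584-28596294. The CPM was 0.695, 0.559, 0.515, 0.127 and 0.654 in CTRL, 1.63, 0.822, 1.23 and 1.26 in PILO, and 2.59, 1.05, 1.69 and 2.21 in PILO+KD replicates 1 to 4 and 2.01 in animal 211. All PILO+KD animals lay above all controls, which had 1 to 7 tags each (log2 fold change 1.84 ± 0.39, SE; adjusted p = 0.553 in edgeR's test), and within flow cell FC101 the value was 1.73 (unadjusted p = 0.0103). The other 4 regions of this kind had log2 fold changes of 1.65 at chr20:4913238-4913786, 1.26 at chr5:155404790-155405659, 1.29 at chr5:168540013-168541095 and 1.35 at chr5:161887145-161887931. In that order, mean CPM was 1.015, 1.395, 3.46 and 1.39 in CTRL, 1.14, 3.44, 5.425 and 3.77 in PILO, and 3.30, 3.34, 8.47 and 3.66 in PILO+KD. PILO was thus as high as PILO+KD at the second and the last. At chr5:168540013-168541095 the PILO+KD and CTRL animals overlapped. Within flow cell FC101 the value at chr5:168540013-168541095 was 0.41 with an unadjusted p of 0.27 in edgeR's test.

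Between the diets, the region with the smallest p was chr10:103061965-103062794. The CPM was 3.11, 4.36, 3.55 and 4.16 in PILO, 1.01, 1.05, 1.36 and 1.55 in PILO+KD replicates 1 to 4 and 1.80 in animal 211, and 2.48, 2.35, 2.96, 2.53 and 5.45 in CTRL. All PILO+KD animals lay below all PILO animals and all controls, and PILO+KD fell by 1.48 ± 0.289 on the log2 scale relative to PILO (SE; adjusted p = 0.547 in edgeR's test). At chr18:78964892-78965525 and chr1:7901035-7902329 the log2 fold changes were -1.21 and -0.98, again with no overlap between PILO+KD and PILO. The first of these was -0.67 and no longer called within flow cell FC101 (unadjusted p = 0.0583 in edgeR's test).

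At chr20:3512210-3512877, by contrast, PILO alone was low. The CPM was 4.47, 5.37, 4.25, 1.77 and 3.93 in CTRL, 0.888, 0.986, 3.24 and 0.378 in PILO, and 7.34, 4.42, 3.16 and 2.65 in PILO+KD replicates 1 to 4 and 3.5 in animal 211. PILO replicate 4 lay among the animals of both other groups, and the other PILO animals lay below all of them. The log2 fold change was -1.61 ± 0.395 for PILO over CTRL and 1.67 ± 0.395 for PILO+KD over PILO (SE; adjusted p = 0.508 and 1 in edgeR's test), and the second was 1.24 within flow cell FC101 (unadjusted p = 0.0108). The other regions higher in PILO+KD than in PILO, chr1:7919419-7920093 and chr12:19680828-19681557, had log2 fold changes of 1.29 and 1.13.

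**Figure D3:**
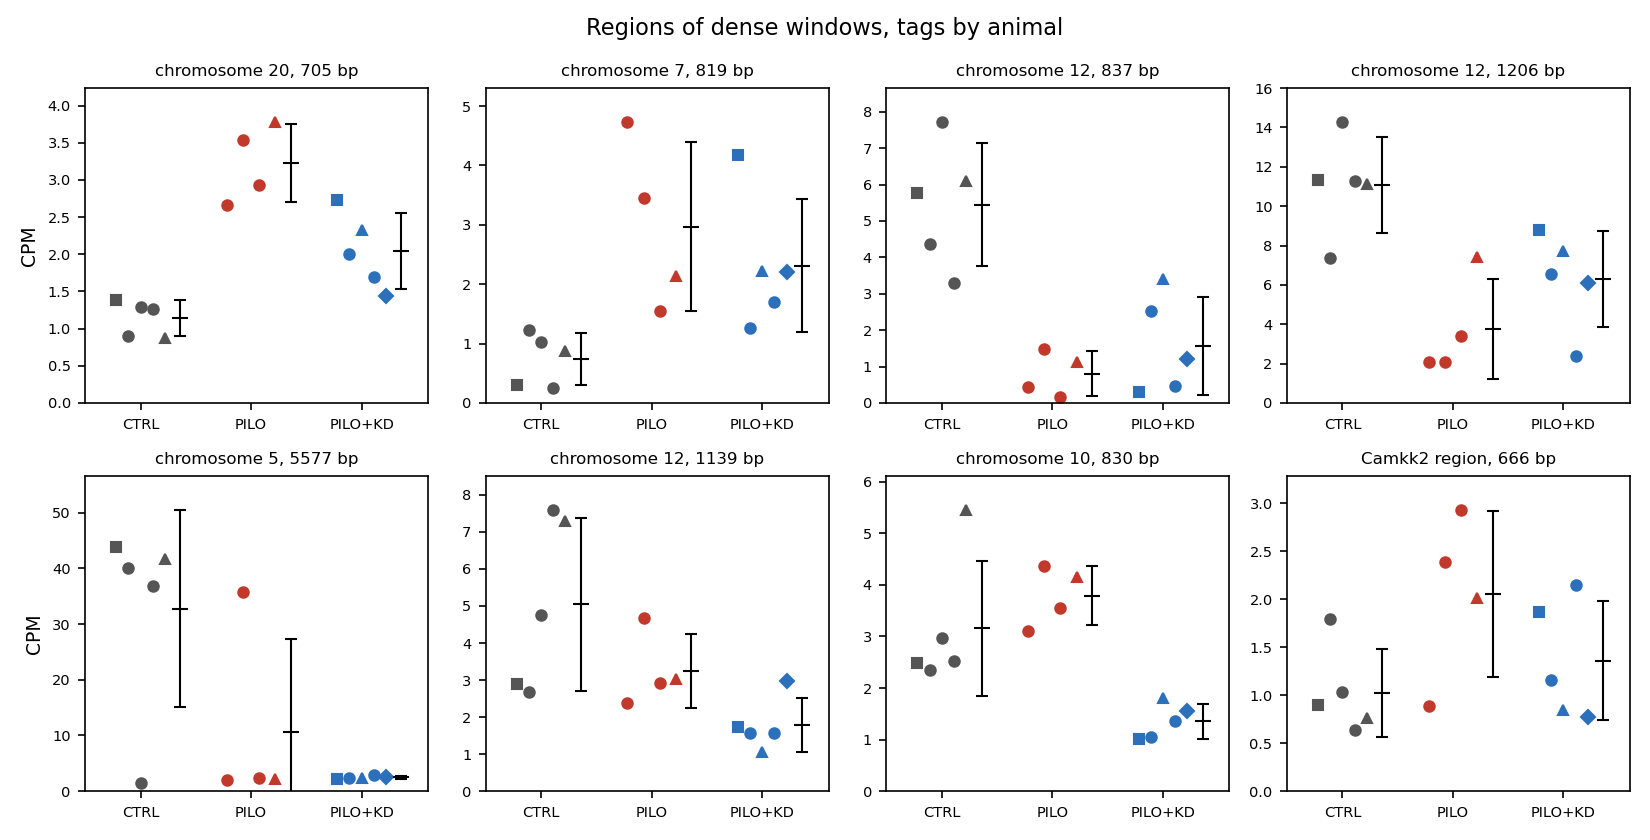
CPM (y axis, starting at 0) of 8 regions of dense windows in each animal, with 1 point per animal, symbols for flow cells FC084 (square), FC101 (circle), FC102 (triangle) and FC104 (diamond), and the mean and SD beside each group, with SD bars cut at 0. The 5577-bp region of chromosome 5 shows 5 animals between 35.8 and 43.8 CPM and the other 9 between 1.42 and 2.82.

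A region that overlaps the Camkk2 stretch examined by bisulfite sequencing in the study lay in a dense window. Camkk2 encodes a kinase that is activated by calcium and calmodulin and phosphorylates other kinases. The region, chr12:34936037-34936702, had 5 to 29 tags per animal. Its CPM was 0.894, 1.79, 1.03, 0.633 and 0.763 in CTRL, 0.888, 2.38, 2.93 and 2.02 in PILO, and 1.87, 1.16, 2.15 and 0.774 in PILO+KD replicates 1 to 4 and 0.848 in animal 211. The groups overlapped: PILO replicate 2 lay among the controls and the other PILO animals lay above them. The log2 fold change of PILO over CTRL was 1.0 ± 0.395 (SE; unadjusted p = 0.0163, adjusted p = 0.866 in edgeR's test), and that of PILO+KD over CTRL was 0.38 ± 0.392 (SE; adjusted p = 1). Without CTRL replicate 2 the value for PILO was 1.30 and without PILO replicate 2 it was 1.23, with unadjusted p of 0.00446 and 0.00359 in edgeR's test. The window around it, with 33 regions, did not move with this region. Its log2 fold change of PILO over CTRL was 0.026 ± 0.0797 (SE), and of its 22 tested regions 13 were higher and 9 lower.

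The region of dense windows with the most tags per kb, chr4:182542640-182547989, varied widely between animals of every group. Its CPM was 470 to 800 in CTRL, 528 to 980 in PILO and 386 to 1027 in PILO+KD, so that the groups overlapped throughout. The log2 fold change of PILO over CTRL was 0.37 ± 0.228 (SE; adjusted p = 1 in edgeR's test).

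Called regions were mostly alone in their window. Only 1.56% of the tested regions were called between PILO and CTRL, and how far the counts below follow from this share was not tested. Other windows were not counted in this way, so the counts do not set dense windows apart. Between PILO and CTRL, 282 of the 1216 dense windows held at least 1 called region and 42 held 2 or more, and in 17 of these 42 the called regions pointed in both directions. Between PILO+KD and CTRL the counts were 217 windows with at least 1, 32 with 2 or more and 11 with both directions, and between PILO+KD and PILO they were 86, 6 and 4. Around regions called higher in PILO, a mean of 55.9% of the other tested regions of the window were also higher, and around those called lower it was 45.4%, against 49.0% around regions that were not called. The regions outside dense windows gave similar values, 54.5%, 43.0% and 48.9%. The window with the most called regions, chr12:7400001-7500000, had 1 higher and 4 lower among 28 tested.

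Within that window, neighbouring regions went opposite ways. The region at chr12:7419360-7420167 was lower in PILO, with a log2 fold change of -1.51. The next one, chr12:7420337-7421164, was higher, with 1.16, and chr12:7423188-7423572 was lower again, with -1.71. The remaining called regions of the window, chr12:7441781-7442986 and chr12:7479256-7480394, were lower by log2 fold changes of -1.58 and -0.93. In PILO+KD the same 5 regions had log2 fold changes over CTRL of -1.04, 0.72, -1.0, -0.82 and -0.96. On chromosome 20, the windows chr20:3400001-3500000 and chr20:3500001-3600000 each held 3 regions called higher in PILO and 1 called lower, and chr20:3512210-3512877, lower by -1.61, lay next to chr20:3513080-3514297, higher by 1.73.

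In the other 3 windows with 4 called regions, those regions pointed one way. In chr12:32600001-32700000, 4 of 16 tested regions were called higher in PILO, with log2 fold changes of 0.93, 1.04, 0.92 and 0.87, and 12 of the 16 had a higher level. In chr2:227000001-227100000, 4 of 16 were called higher, with 0.98, 0.99, 1.05 and 0.66. In chr3:59500001-59600000, 4 of 27 were called lower, with -0.74, -0.42, -1.40 and -0.68, and for PILO+KD over CTRL these 4 had -0.19, -0.12, -0.10 and -0.26.

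**Figure D4:**
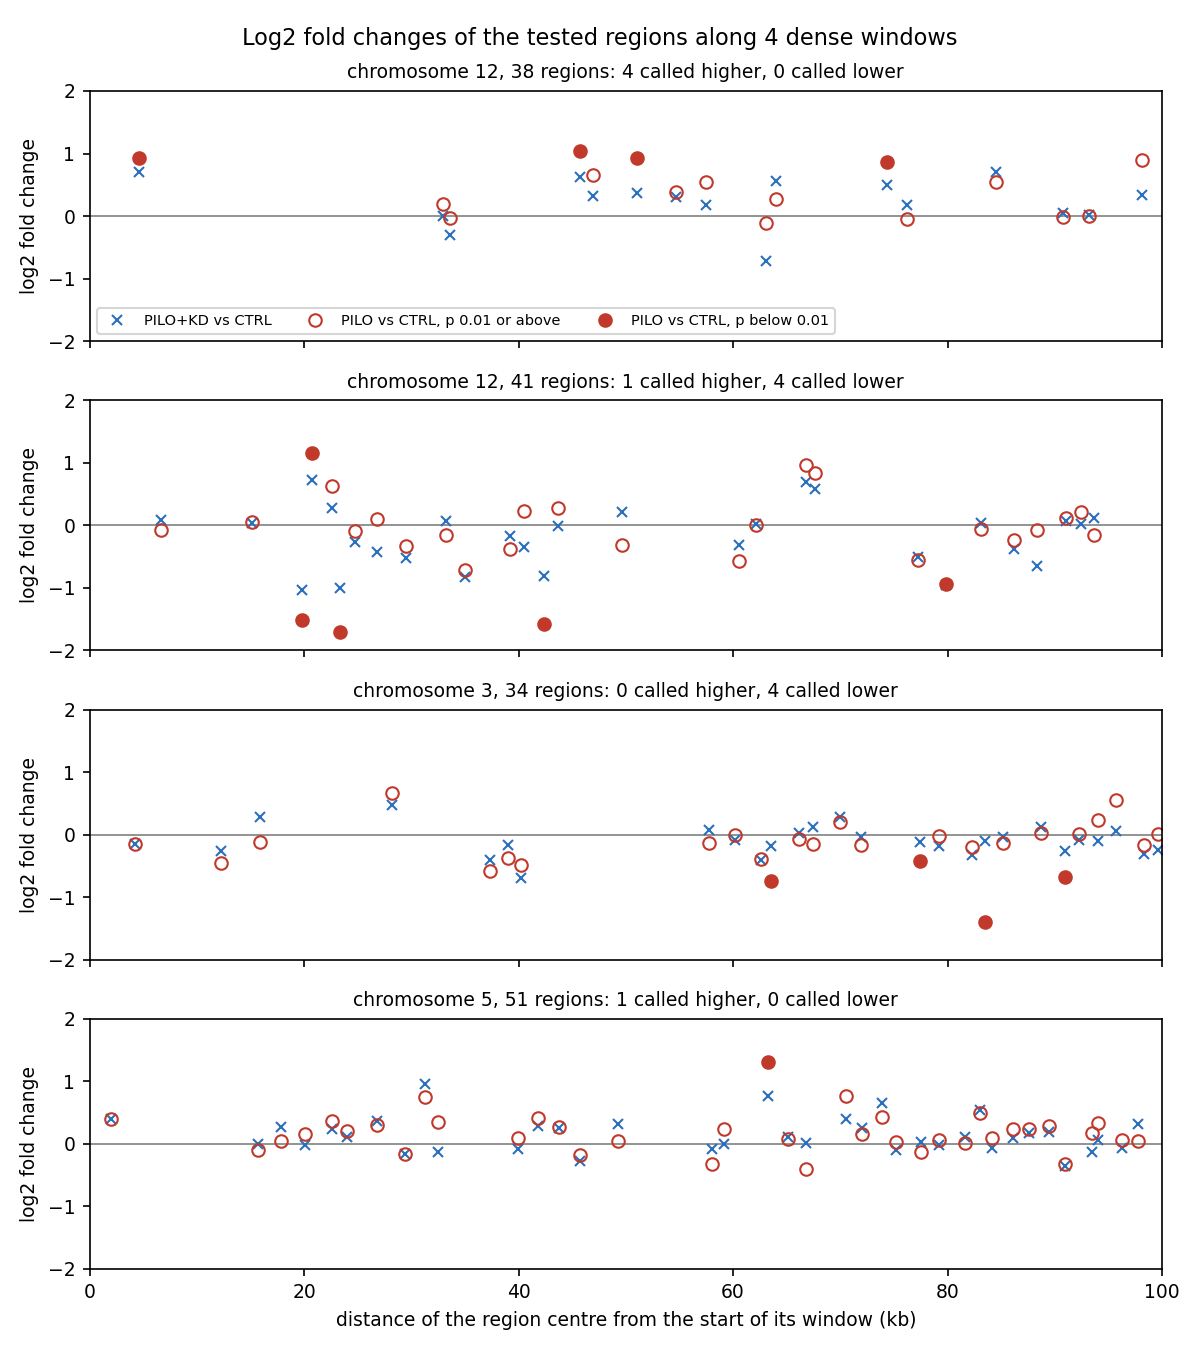
Log2 fold change (y axis) of each tested region along 4 dense windows, against the distance of its centre from the start of the window (x axis, kb), for PILO over CTRL (circles, filled where p was below 0.01) and PILO+KD over CTRL (crosses). The window of chromosome 12 with 41 regions holds called regions of both directions within its first 25 kb, and the densest window, on chromosome 5 with 51 regions, holds 1 called region.

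Summed over whole windows, the differences were small. Tags were added over all regions of a window and the sums tested across all 12508 windows that passed a filter on low sums, which 1213 of the 1216 dense windows did. Between PILO and CTRL, 9 dense windows were called (0.742%, against 0.576% of all tested windows). All 9 were higher in PILO (0.742%, against 0.328%), and 0 were lower (0%, against 0.248%). With windows shifted by 50 kb, 7 were higher and 3 lower (0.822% called, against 0.567% of all tested windows). Among windows of 20 or more regions 29 were higher and 13 lower (0.909% called, against 0.576%). At p below 0.05 there were 52 (4.29%, against 3.02%). After adjustment edgeR's quasi-likelihood test left 0 (0% of all tested windows), DESeq2 0 and edgeR's exact test 1. At unadjusted p below 0.01 the exact test called 21 (1.73%, against 1.22%). The median log2 fold change of dense windows was -0.0102, and the largest was 0.44.

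The window with the smallest p was chr12:32600001-32700000, described above. Its CPM was 68.0, 75.1, 60.4, 63.0 and 56.7 in CTRL, 75.9, 99.7, 91.1 and 83.5 in PILO, and 66.0, 84.9, 91.3 and 62.7 in PILO+KD replicates 1 to 4 and 78.6 in animal 211. The PILO animals lay above all controls, the lowest of them by less than 1 CPM, and the PILO+KD animals lay among both groups. The log2 fold change of PILO over CTRL was 0.44 ± 0.112 (SE; unadjusted p = 0.000756, adjusted p = 0.999 in edgeR's test), and that of PILO+KD over CTRL was 0.25 ± 0.106 (SE; adjusted p = 1).

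The other 8 called windows differed by similar amounts. They were chr5:166600001-166700000 (log2 fold change 0.35), chr13:106400001-106500000 (0.36), chr19:50700001-50800000 (0.28), chr12:25300001-25400000 (0.41), chr3:41400001-41500000 (0.39), chr15:105400001-105500000 (0.37) and the adjacent windows chr20:43500001-43600000 (0.35) and chr20:43600001-43700000 (0.35). In 2 of the 9 windows, those of chromosomes 3 and 15, the PILO and CTRL animals overlapped. The 9 were chosen for their small p in these same animals. All PILO animals lay above all CTRL animals in 15 tested dense windows (1.24%, against 0.673% of the other tested windows). They lay below all CTRL animals in 5 (0.412%, against 0.876%). In chr20:43600001-43700000 the CPM was 58.7, 59.9, 55.7, 53.1 and 46.9 in CTRL and 75.7, 72.2, 66.4 and 64.5 in PILO, with all 10 tested regions higher in PILO. The dense windows with the smallest p among those lower in PILO, none of them called, were chr20:4600001-4700000, chr3:162900001-163000000 and chr1:7600001-7700000, with log2 fold changes of -0.23, -0.22 and -0.26. The first was called with flow cell as a covariate (unadjusted p = 0.00767 in edgeR's test), by DESeq2, and without CTRL replicate 4 or PILO+KD replicate 4. The last was called without PILO+KD replicate 4 (unadjusted p = 0.0098), and edgeR's exact test and the fit of only these groups called both.

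These calls depended on single animals, most on PILO replicate 3. Without it, 1 of the 9 windows, chr12:32600001-32700000, was still called (log2 fold change 0.37, unadjusted p = 0.00571 in edgeR's test), the other 8 had log2 fold changes of 0.22 to 0.33, and of the 9 dense windows then called (0.742%, against 0.951% of all tested windows) 2 were higher and 7 lower. Of the 9 original windows, 5 were still called without CTRL replicate 3, 4 or 5 or PILO replicate 4, 7 without CTRL replicate 2, 8 without PILO replicate 2 or animal 211, and 9 without any other animal. In all, 17 dense windows were called without CTRL replicate 1 (1.4%, against 0.696% of all tested windows), 5 without CTRL replicate 5 (0.412%, against 0.4%), 15 without PILO replicate 2 (1.24%, against 0.552%) and 18 without PILO+KD replicate 4 (1.48%, against 0.871%). Within flow cell FC101, which includes PILO replicate 3, all 9 were called with log2 fold changes of 0.35 to 0.59, among 32 called dense windows (2.64%, against 1.22% of all tested windows).

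**Figure D5:**
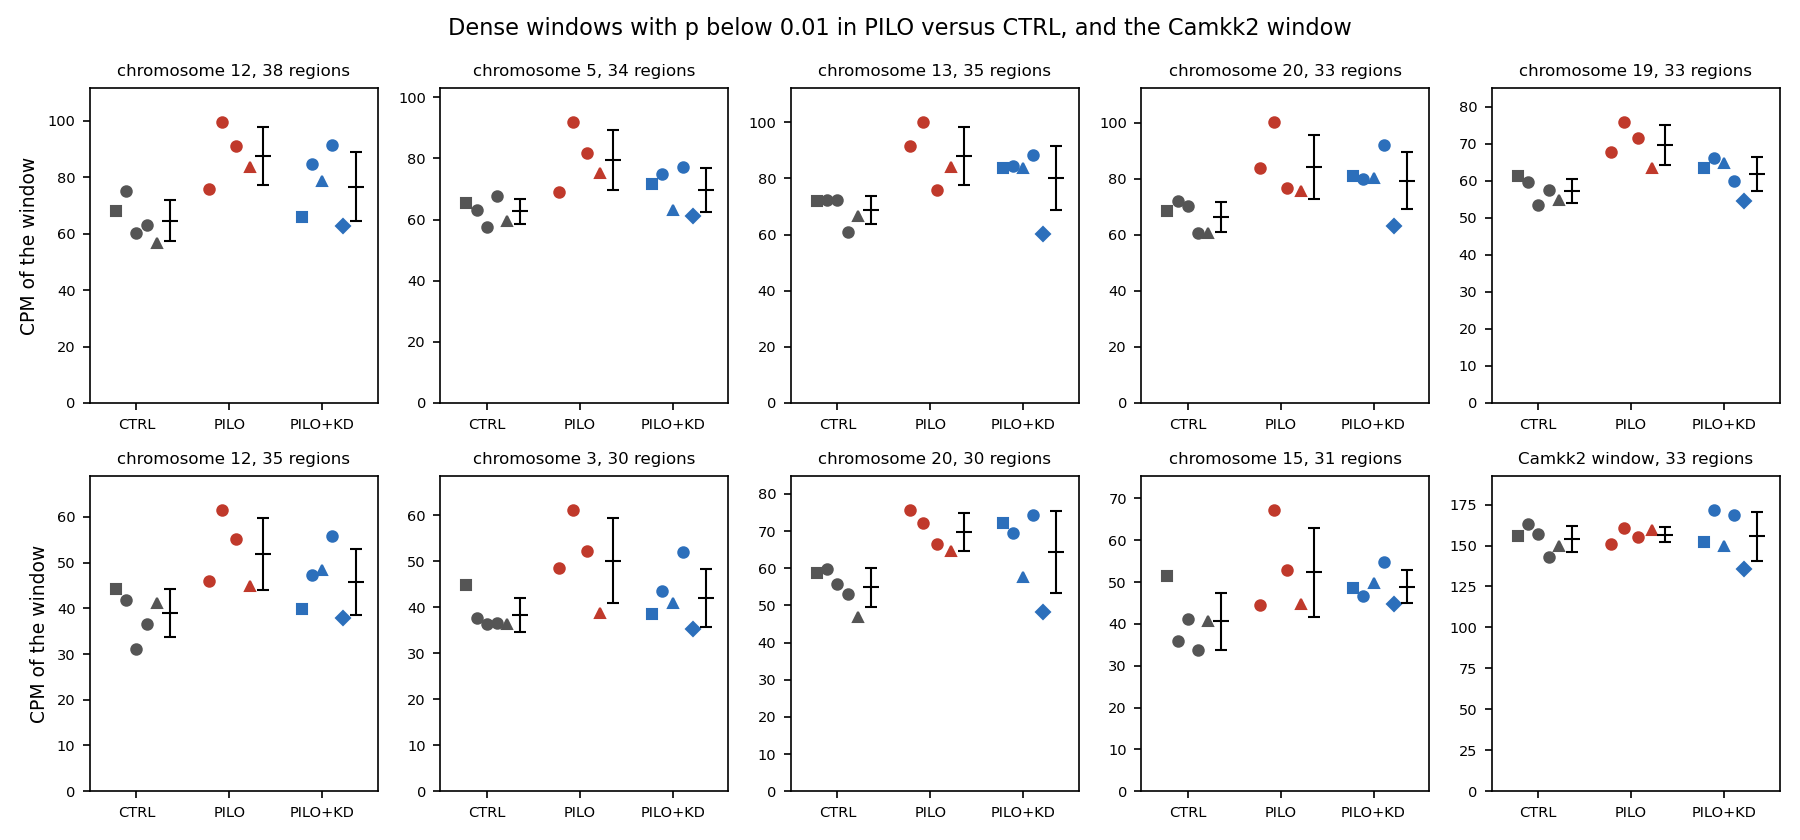
CPM (y axis, starting at 0) summed over the 9 dense windows called between PILO and CTRL and over the Camkk2 window, with 1 point per animal, symbols for flow cells FC084 (square), FC101 (circle), FC102 (triangle) and FC104 (diamond), and the mean and SD beside each group. PILO means lie above CTRL means by log2 fold changes of 0.28 to 0.44 in the 9 windows, whereas the groups overlap in the Camkk2 window.

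Between PILO+KD and CTRL, 2 dense windows were called (0.165%, against 0.2% of all tested windows), 0 higher (0%, against 0.104%) and 2 lower (0.165%, against 0.0959%). At p below 0.05 there were 15 (1.24%, against 1.54%), and after adjustment edgeR's quasi-likelihood test, DESeq2 and edgeR's exact test left 0 (0% of all tested windows in the first). In chr10:105200001-105300000 the CPM was 125, 125, 121, 118 and 116 in CTRL and 96.2, 116, 111 and 94.6 in PILO+KD replicates 1 to 4 and 91.9 in animal 211. PILO+KD replicate 2 reached the lowest control and the others lay below (log2 fold change -0.25 ± 0.0781, SE; adjusted p = 1 in edgeR's test). The other window, chr5:168700001-168800000, holds the 5577-bp region described above and had a log2 fold change of -0.32 ± 0.104 (SE; adjusted p = 1).

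Neither call held across animals or flow cells. Within flow cell FC101 the log2 fold changes were -0.084 and -0.14 with unadjusted p of 0.433 and 0.316 in edgeR's test, and 28 other dense windows were called (2.31%, against 0.776% of all tested windows), all higher in PILO+KD. Without PILO+KD replicate 4, which had the lowest share of tags in dense windows, 7 were called (0.577%, against 0.432%), all higher. Without PILO+KD replicate 2 or 3 there were 5 (0.412%, against 0.44%) and 6 (0.495%, against 0.408%). Without CTRL replicate 1 or 2 there was 1 each, higher (0.0824%, against 0.168% and 0.136%), and without animal 211 there were 0 (0%, against 0.144%).

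Between PILO+KD and PILO, 0 dense windows were called, against 18 of all tested windows (0.144%), of which 15 were higher (0.12%) and 3 lower (0.024%). At p below 0.05 there were 3 (0.247%, against 0.656%), and after adjustment edgeR's quasi-likelihood test, DESeq2 and edgeR's exact test left 0 (0% of all tested windows in the first). The smallest p belonged to chr13:66800001-66900000, with a log2 fold change of -0.34 ± 0.125 (SE; adjusted p = 1 in edgeR's test). Without 1 animal the count of called dense windows was at most 2. It was 1 without PILO replicate 2, 3 or 5 (0.0824%, against 0.152%, 0.192% and 0.128% of all tested windows). Without PILO+KD replicate 3 or 4 it was 2 (0.165%, against 0.144% and 0.32%). Within flow cell FC101 it was 4 (0.33%, against 0.672% of all tested windows).

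Summed over the most crowded windows, no difference was called. In the 10 dense windows with the most regions, 45 to 51 each and with only 2 of the 8 windows of 45 regions among them, the log2 fold changes ranged from -0.13 to 0.15 for PILO over CTRL, from -0.11 to 0.084 for PILO+KD over CTRL and from -0.088 to 0.059 for PILO+KD over PILO, and no sum was called, the smallest unadjusted p in edgeR's test being 0.136. The densest, chr5:169700001-169800000 with 51 regions over 43073 bp, had a CPM of 251, 280, 283, 243 and 253 in CTRL, 280, 332, 279 and 270 in PILO, and 283, 295, 310 and 242 in PILO+KD replicates 1 to 4 and 259 in animal 211. The groups overlapped, and 30 of its 37 tested regions had a higher level in PILO, 1 of them called.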

How the data were processed

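Dorsal hippocampus DNA of 14 rats was analysed. The authors captured methylated fragments, aligned 36-bp reads to RN4 with BWA, called differences between all pairs of samples with MACS 1.4.0, merged the regions with bedtools, removed duplicate reads and deposited 1 table of raw tag counts per region and animal; the deposited counts were not normalized. Columns of samples outside the labels numbered 0. Starts in the deposited table are counted from 0, and 1 was added to those printed.

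Regions under the 50th centile of tags summed over the animals were removed, library sizes were scaled by the trimmed mean of M-values, and groups were compared with edgeR 4.0.16 (glmQLFit, glmQLFTest; R 4.3.3) over all 14 animals, with p below 0.01 as the call, as in the study's own threshold, and Benjamini-Hochberg adjustment over all regions or windows tested. For windows, tags were summed first and the same filter applied. DESeq2 1.42.0 and edgeR's exact test were alternatives. Scripts were tested on simulated data. For single regions, 1 tag equals 0.0822 to 0.154 CPM, so low counts limit the precision. CPM of windows were scaled in a separate fit and are not on the scale of region CPM. Standard errors and p-values of the fold changes take the spread between animals into account.

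The regions, windows and lists were chosen with earlier results of these data known. Named were the 10 dense windows with the most regions (2 of 8 tied at 45 regions were kept) and the longest run, the 5 higher and 5 lower regions with the smallest p against CTRL (3 and 3 between diets), the 3 higher and 3 lower windows with the smallest p, the region at the Camkk2 amplicon and the region with the most tags per kb. All called windows, and the windows with 4 or more called regions or beside these, were named after their values were seen. Genes and sequences of RN4 were not analysed here.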

Additional observations from a re-analysis of the deposited data

Results flagged for a closer look

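The values of 47 of the named regions and windows, and the share of tags, were examined in 144 groups of 4 or 5 animals. An animal far from the others of its group was sought by Dixon's ratio of the gap to the range. Windows named only for holding the most regions were not among them. Such an animal was found 10 times, and chance gives about 1 in 20 groups. The groups were not independent, since some regions lay inside windows that were also examined.

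The chromosome 5 region of 5577 bp, chr5:168727249-168732825, held 2 of them. CTRL replicate 3 had 1.42 CPM against 36.8 to 43.8 in the other controls, and PILO replicate 3 had 35.8 CPM against 2.07 to 2.31 in the other PILO animals. In the window that holds this region, chr5:168700001-168800000, PILO replicate 3 had 206.6 CPM against 147 to 156.

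PILO+KD animals stood apart 3 times. PILO+KD replicate 4 had 3.32 CPM at chr1:7919419-7920093 against 6.79 to 7.90 in the other animals of its group, and 60.3 CPM in chr13:106400001-106500000 against 83.7 to 88.5. In chr13:66800001-66900000, PILO+KD replicate 1 had 28.1 CPM against 39.8 to 44.4.

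Among controls, replicate 5 had 5.45 CPM at chr10:103061965-103062794 against 2.35 to 2.96, replicate 2 had 129.5 CPM in chr1:261700001-261800000 against 76.9 to 91.5, and replicate 1 had 44.8 CPM in chr3:41400001-41500000 against 36.3 to 37.6. At chr12:19680828-19681557, PILO replicate 4 had 1.54 CPM against 1.14 to 1.18 in the other PILO animals.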

How the results depend on the processing

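Of the alternative values for single named regions, 734 of 748 kept their direction and their side of the threshold, and for named windows 557 of 648 did. DESeq2 gave no p for chr5:168727249-168732825 in PILO+KD versus CTRL, and regions that failed a stricter filter gave no value. Counts of called regions moved with the number of regions tested, and with the test and scaling at about the same number. For PILO versus CTRL they were 485 with edgeR's exact test (2.2%, against 1.68% of all tested regions) and 289 with DESeq2 (1.31%, against 1.03%). They were 403 with only these groups (1.83%, against 1.42%) and 287 with total tags (1.3%, against 0.997%). Without a filter, 621 regions were called for PILO versus CTRL (1.51%, against 1.17% of all tested regions). For PILO+KD versus CTRL there were 442 (1.07%, against 0.946%), and for PILO+KD versus PILO 252 (0.613%, against 0.536%). With at least 10 tags in every animal, the counts were 178 (1.45%, against 1.02%), 115 (0.934%, against 0.675%) and 37 (0.3%, against 0.253%). With 20 or more regions per window they were 994 (1.55%, against 1.19%), 704 (1.1%, against 0.92%) and 272 (0.424%, against 0.351%). With 40 or more they were 41 (1.61%), 33 (1.3%) and 13 (0.51%), against the same shares of all tested regions. Leaving out 1 animal gave 269 to 396, 166 to 296 and 84 to 161 called regions. At these extremes the shares were 1.22% and 1.8% (against 0.932% and 1.41% of all tested regions) for PILO versus CTRL. They were 0.754% and 1.34% (against 0.634% and 1.01%) for PILO+KD versus CTRL, and 0.381% and 0.731% (against 0.315% and 0.594%) for PILO+KD versus PILO. Called dense windows numbered 5 to 18 (0.412% and 1.48%, against 0.4% and 0.871% of all tested windows). For PILO+KD versus CTRL they numbered 0 to 7 (0% and 0.577%, against 0.144% and 0.432%), and for PILO+KD versus PILO 0 to 2.

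For PILO versus CTRL, the number of called dense windows was 21 with edgeR's exact test (1.73%, against 1.22% of all tested windows). It was 15 with DESeq2 (1.24%, against 0.76%) and 20 with only these 2 groups (1.65%, against 1.1%). Within flow cell FC101 it was 32 (2.64%, against 1.22%), and with flow cell as a covariate 16 (1.32%, against 0.855%). It was 42 with 20 or more regions per window (0.909%, against 0.576%) and 0 with 40 or more (0%). For PILO+KD versus CTRL it was 28 within flow cell FC101 (2.31%, against 0.776%) and 6 with flow cell as a covariate (0.495%, against 0.44%). With 20 and 40 or more regions per window it was 10 and 1 (0.216% and 0.99%, against 0.2%). With windows shifted by 50 kb it was 1 (0.0822%, against 0.184%). For PILO+KD versus PILO it was 1 without a filter (0.0822%, against 0.152%) and with DESeq2 (0.0824%, against 0.16%). It was also 1 with at least 10 tags in every animal (0.0822%, against 0.146%). Within flow cell FC101 it was 4 (0.33%, against 0.672%). It was 2 with flow cell as a covariate (0.165%, against 0.296%) and 3 with 20 or more regions per window (0.0649%, against 0.144%). The cause was not tested.

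The main fit did not pair animals by replicate number. Same-numbered animals shared a flow cell, except where PILO+KD replicate 4 was one of them. Deviations of same-numbered animals correlated between -0.231 and 0.145 in 4 pairs of PILO and CTRL. In 4 pairs of PILO+KD and CTRL the range was -0.286 to 0.193, and in 3 of PILO+KD and PILO -0.0852 to 0.283. In each comparison 2 pairs were above 0.1 and 1 or more below it. So few pairs cannot decide whether the numbers pair the animals. Replicate number as a block gave 369 called regions (1.68%, against 1.28% of all tested regions), 174 (0.79%, against 0.614%) and 83 (0.377%, against 0.304%). Dense windows called numbered 22 (1.81%, against 0.967% of all tested windows), 1 (0.0824%, against 0.176%) and 2 (0.165%, against 0.112%). Among them were chr20:4600001-4700000 and chr1:7600001-7700000, lower in PILO than in CTRL.

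The directions that turned belonged to values that were not called. For chr4:182542640-182547989, PILO+KD versus CTRL was -0.59 within flow cell FC101, -0.047 with flow cell as a covariate, -0.079 with the replicate block, and -0.17 to 0.20 without single animals. For the Camkk2 window, PILO+KD versus PILO was 0.13 within flow cell FC101 and 0.047 with flow cell as a covariate, and -0.049 to 0.039 without single animals, and PILO+KD versus CTRL was -0.023 to 0.063. The difference in the share of tags in dense windows, in percentage points, was -0.54 to -0.017 for PILO versus CTRL, -0.54 to 0.11 for PILO+KD versus CTRL and -0.35 to 0.30 for PILO+KD versus PILO without single animals. Regions with few tags per animal limit the precision of the fold changes.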
